A study of Mus musculus with 6 samples.

Results

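Expression of glycolysis and hypoxia response genes was followed in the mouse prostate cancer line TRAMP-C2 after low-dose exposure to a pair of platinum drugs. The gene group had 37 members out of 54446 gene identifiers in the expression table, and was put together by name from general knowledge of the pathway: glucose and lactate transporters, the enzymes that turn glucose into lactate, the enzymes that set fructose-2,6-bisphosphate, pyruvate dehydrogenase kinase, the hypoxia-inducible factors (HIFs) with their prolyl hydroxylases, and genes known to be induced in low oxygen. The list was drawn up with earlier results of these data known, so its shares of called genes describe the data and test nothing. All 37 were matched, and 36 passed the filter on low counts that left 14956 genes for testing. Epas1, which encodes the second HIF alpha subunit, did not pass, with 1.96 to 10.2 normalised counts per library. Normalised counts are the deposited counts divided by the size factor of their library.

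Cells were left without drug (control) or treated with 2 µM oxaliplatin or 2 µM cisplatin, all for 24 h, with 2 libraries in each group. All groups were male C57BL/6 cells grown in the same medium, which contained bovine insulin and an androgen precursor. TRAMP-C2 was derived from a prostate tumour of a TRAMP mouse, in which the probasin promoter drives SV40 T antigen, and whether the cultures used here were 1 clone is not given in the sources used here. Libraries were made from poly(A) RNA and held 21345312 to 24041767 counts, so that 3 counts, the limit that a count of 0 allows, correspond to 0.125 to 0.141 CPM (counts scaled to a common library total, covering counting error only). Nothing in the labels says that the libraries of a group came from separate cultures, so the p-values measure the spread between these samples, which may be technical. Bulk libraries do not tell less RNA per cell from fewer cells of a type.

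The labelled tissue was checked against markers. The prostate markers Pbsn, Hoxb13 and Tmprss2 had at most 3 counts in every library. Among 6 epithelial markers Epcam and Krt5 did too, the 6 summing to 31.9 to 34.0 CPM in control, 33.8 to 34.5 in oxaliplatin and 41.9 to 42.1 in cisplatin cells. By contrast, all 6 mesenchymal markers (Vim, Cdh2, Fn1, Col1a1, Pdgfra and Dcn) were present, summing to 13200 to 13500 CPM in control, 12100 to 12500 in oxaliplatin and 11300 to 11800 in cisplatin cells. Immune markers summed to 1.47 to 1.97, 1.42 to 1.46 and 2.19 to 2.28 CPM in the same order, with Ptprc, Cd3e and Adgre1 at no more than 3 counts, and Cdh5 and Tek, of 4 endothelial markers, were at no more than 3 counts too. The endothelial markers summed to 1.07 to 1.26 CPM in control, 2.29 to 2.79 in oxaliplatin and 2.37 to 3.14 in cisplatin cells, and Kdr among them rose by 1.20 ± 0.43 and 1.31 ± 0.43 (log2, adjusted p = 0.0259 and 0.0109). The part of these differing sums in the results on treated cells was not tested.

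Glycolysis splits glucose to pyruvate in the cytosol, and many tumour cells reduce most of that pyruvate to lactate and export it even where oxygen is present. When oxygen falls, prolyl hydroxylases no longer mark HIF-1 alpha for destruction, and the factor then binds a short core sequence near its targets, most glycolytic enzymes among them. HIF-1 alpha is controlled largely at the protein level, so that its mRNA is a poor measure of its activity, and Myc and p53 act on several of the same genes.

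As HIF is known to act through this core, the core was searched for in the 250 bases upstream of the gene start in RefSeq windows (GRCm38.p6), as ACGTG or GCGTG on either strand, where CACGTG holds ACGTG on both strands. A window was available for 33 of the 37 members. The most upstream window held at least 1 match in 26 of these, or 78.8%, against 38.6% of the 27025 genes with a window and 56.7% of the 10389 tested genes with one. The median log2 fold change after oxaliplatin was 0.17 in the 26 members with a match and 0.084 in the 7 without, and after cisplatin -0.053 and -0.018. Between the drugs the medians were 0.16 and 0.17. A match is a run of letters and not a bound site. The 7 members without a match in the most upstream window were Hk1, Gpi1, Aldoa, Tpi1, Eno2, Pkm and Vegfa. Of these, Gpi1, Aldoa, Tpi1, Pkm and Vegfa were called after at least 1 drug. Up to 150 bases before the RefSeq start are shown for 6 members that carry results described next, all picked with a match. The stretches are cut where a GENCODE exon of the gene begins, with the core in capitals. The Ldha and Pfkl stretches lie inside the longer GENCODE gene models, in introns.
Slc2a1 (chr4:119108595-119108710, plus strand): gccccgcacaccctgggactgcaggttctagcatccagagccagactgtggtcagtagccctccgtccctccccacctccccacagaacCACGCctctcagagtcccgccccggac
Pfkl (chr10:78009808-78009957, minus strand): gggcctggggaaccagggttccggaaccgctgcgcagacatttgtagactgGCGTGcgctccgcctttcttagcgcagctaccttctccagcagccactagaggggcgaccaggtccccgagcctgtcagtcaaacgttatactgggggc
Pgam1 (chr19:41911721-41911870, plus strand): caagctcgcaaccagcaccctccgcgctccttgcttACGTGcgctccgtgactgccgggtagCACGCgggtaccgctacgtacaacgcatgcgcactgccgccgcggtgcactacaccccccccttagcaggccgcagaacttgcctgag
Ldha (chr7:46845654-46845803, plus strand): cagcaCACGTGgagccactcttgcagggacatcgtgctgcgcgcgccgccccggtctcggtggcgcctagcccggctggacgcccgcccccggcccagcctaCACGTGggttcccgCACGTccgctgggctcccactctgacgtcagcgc
Pdk1 (chr2:71873074-71873223, plus strand): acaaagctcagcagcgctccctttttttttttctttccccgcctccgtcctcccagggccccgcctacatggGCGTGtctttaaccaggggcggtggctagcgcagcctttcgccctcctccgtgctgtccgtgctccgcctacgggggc
Bnip3 (chr7:138909520-138909656, minus strand): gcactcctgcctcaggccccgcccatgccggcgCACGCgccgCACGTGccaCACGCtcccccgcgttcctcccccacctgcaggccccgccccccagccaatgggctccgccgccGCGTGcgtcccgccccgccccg
Ldha and Bnip3 each held 5 matches in the bases shown, counted on both strands, and Pfkl and Pdk1 held 1.

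**Figure D1:**
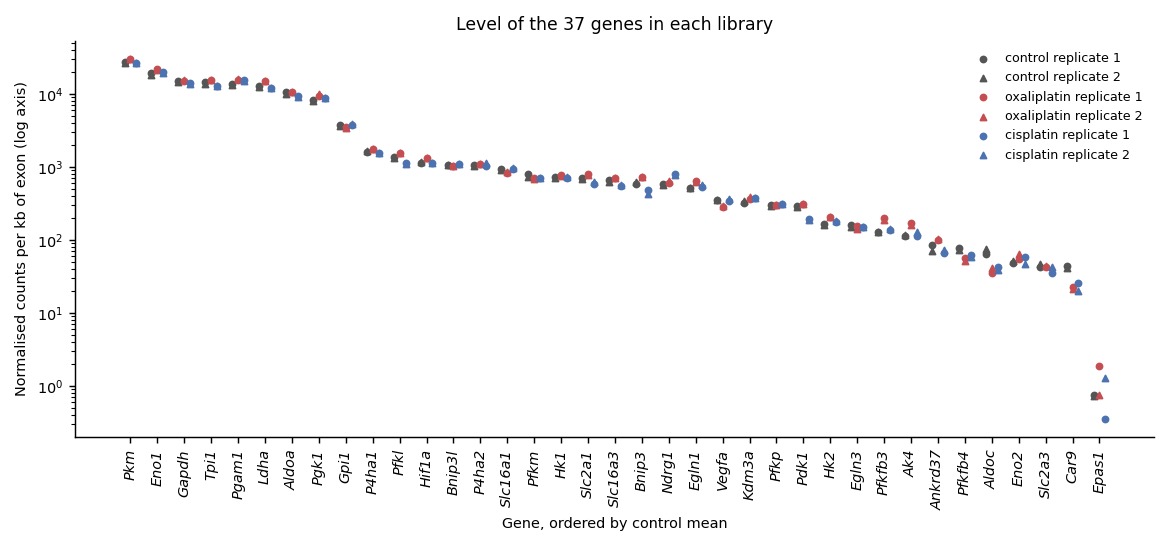
Level of each of the 37 members in each of the 6 libraries, as normalised counts per kb of exon on a log axis, with genes ordered by their control mean. Pkm was at 27200 and Epas1 at 0.733 in control cells, and the 6 points of most genes lie close together on this scale.

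Members differed far more from each other than any of them did between treatments. On the scale of normalised counts per kb of exon, the control means ran from 27200 for Pkm through 19024 for Eno1, 14761 for Gapdh, 14068 for Tpi1, 13659 for Pgam1, 12695 for Ldha, 10309 for Aldoa and 8254 for Pgk1, the enzymes of the steps shared by all cells, down to 42.6 for Car9 and 0.733 for Epas1. The control libraries of Tpi1 overlapped those of Gapdh above it and of Pgam1 below it on this scale. Together the 37 members took 1.43% and 1.39% of all counts in the control libraries, 1.54% and 1.55% after oxaliplatin and 1.35% and 1.35% after cisplatin. The share was therefore highest in both oxaliplatin libraries and lowest in both cisplatin libraries.

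The comparison of each drug with control asked which members change at this low dose. After oxaliplatin 20 of the 36 tested members passed an adjusted p of 0.05 (DESeq2 with Benjamini-Hochberg adjustment over all 14956 genes), 15 higher and 5 lower. Over all genes 20.2% were called in this comparison, 10.7% as higher and 9.5% as lower, against 55.6% of the members, 41.7% as higher and 13.9% as lower. Genes that independent filtering left without an adjusted p count as not called, which lowers the shares of all genes. There were 2900 of them here, 1740 after cisplatin and 2900 between the drugs, whereas every tested member had an adjusted p. The changes were small. The median log2 fold change of the 36 members was 0.13, where that of all genes was -0.00285, and the called members had a median absolute log2 fold change of 0.22, below the 0.33 of all called genes. After cisplatin 11 members were called, 2 higher and 9 lower. The background here was 28.1% called, 15.7% higher and 12.4% lower, against 30.6% of the members, so the count as a whole was near the background, with 5.56% of members higher and 25.0% lower. Their median log2 fold change was -0.024. Scaling by total counts gave 14 lower and 2 higher members after cisplatin, where all genes were then split into 12.2% higher and 15.9% lower.

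Fewer members were called when 1 library was left out. Without oxaliplatin replicate 1, 7 members were called after oxaliplatin, against 10 without oxaliplatin replicate 2, 11 without control replicate 2 and 13 without control replicate 1. Calls over all genes fell as well, from 20.2% to 8.22%, 9.39%, 12.0% and 11.6% in the same order, against 19.4%, 27.8%, 30.6% and 36.1% of the members. Without cisplatin replicate 1 or 2, 6 members (16.7%) were called after cisplatin, where all genes were at 14.3% and 14.1%. Calls that were kept under all 15 alternative analyses were those of Pfkfb3, Pgk1, Pgam1, Eno1, Pkm, Ldha and Hif1a after oxaliplatin, and those of Pfkl, Aldoa, Pgam1, Pdk1 and Ndrg1 after cisplatin.

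The drugs moved members in different combinations. Of the 7 called after both drugs, Pgam1 rose and Aldoc and Car9 fell after both, whereas Slc2a1, Pfkl, Tpi1 and Bnip3 rose after oxaliplatin and fell after cisplatin. The drug comparisons share the control libraries, so their values are not independent of each other. A further 11 members were called by DESeq2 in no comparison, namely Slc2a3, Hk1, Pfkp, Pfkm, Pfkfb4, Eno2, Egln3, Bnip3l, Ankrd37, P4ha2 and Kdm3a. Of these, edgeR called Pfkfb4 after oxaliplatin and cisplatin (adjusted p = 0.00516 and 0.0214) and Kdm3a after both (0.0146 and 0.0147), and between the drugs Bnip3l (0.0365) and Ankrd37 (0.0302).

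**Figure D2:**
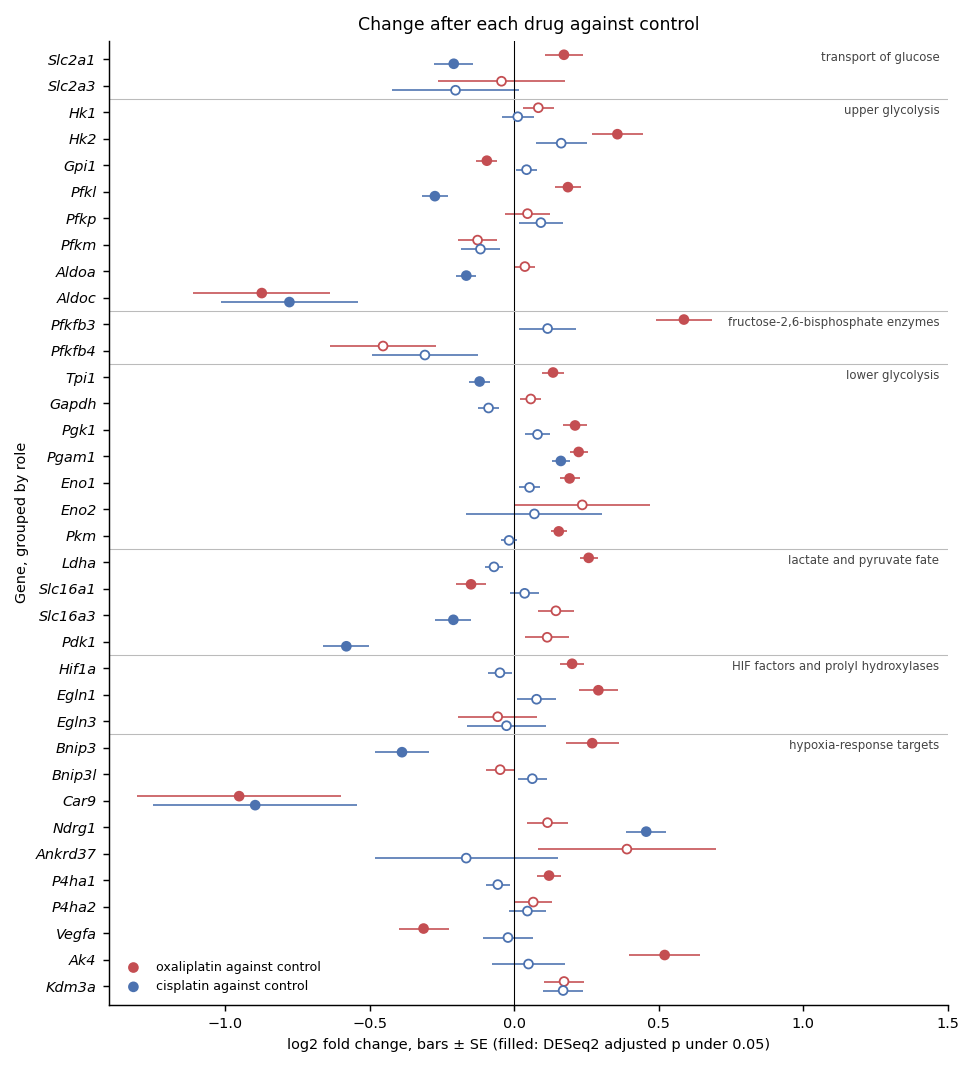
Log2 fold change of the 36 tested members after oxaliplatin (red) and cisplatin (blue) against control, with bars of ± SE over 2 libraries a group and filled points where the DESeq2 adjusted p was under 0.05, grouped by role. All 5 called members of lower glycolysis lie to the right after oxaliplatin, while Pdk1 and Pfkl lie to the left after cisplatin.

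Glucose enters most cells through GLUT1, encoded by Slc2a1 (ENSMUSG00000028645.11, chromosome 4, 119108711 to 119137983). Its normalised counts were 2325.5 and 2249 in control, 2625 and 2527.5 in oxaliplatin and 1912.5 and 2045 in cisplatin cells. The groups did not overlap, with oxaliplatin above and cisplatin below control. It rose by a log2 fold change of 0.17 ± 0.066 (SE) after oxaliplatin (adjusted p = 0.0386) and fell after cisplatin, at -0.21 ± 0.067 (adjusted p = 0.00839). The rise was past the threshold in 5 of 15 alternatives and was lost without each of the 6 libraries in turn (adjusted p up to 0.422), and the fall was lost without either control library or cisplatin replicate 1 (adjusted p up to 0.252). Slc2a3, encoding the high-affinity transporter GLUT3, had 137 to 186 normalised counts and passed in neither comparison.

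Hexokinases trap glucose as glucose-6-phosphate. The inducible Hk2 had 928 and 893 normalised counts in control, 1174 and 1156 in oxaliplatin and 1002 and 1035.5 in cisplatin cells, lowest in the control and highest in the oxaliplatin libraries. Only the rise after oxaliplatin was called, 0.36 ± 0.087 (adjusted p = 0.000404), and it was lost without either oxaliplatin library (adjusted p = 0.0776 without replicate 1 and 0.0505 without replicate 2). Hk1, the more abundant isozyme, had a log2 fold change of 0.084 after oxaliplatin and 0.012 after cisplatin, neither called. Glucose-6-phosphate isomerase, encoded by Gpi1, had 10833 and 10570.2 normalised counts in control, 10124 and 9920.0 in oxaliplatin and 10968 and 11079 in cisplatin cells. The 2 oxaliplatin libraries were the lowest, a fall of -0.095 on the log2 scale that just passed (adjusted p = 0.0406) and was lost without each library in turn (adjusted p up to 0.449) and by edgeR (adjusted p = 0.0561).

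Phosphofructokinase commits sugar to glycolysis, and its liver-type subunit Pfkl (ENSMUSG00000020277.10, chromosome 10, 77986947 to 78010083) had 5072 and 5013 normalised counts in control, 5748 and 5724 in oxaliplatin and 4214 and 4125 in cisplatin cells. All libraries of a group lay apart from those of the others. Pfkl rose after oxaliplatin (0.19 ± 0.044, adjusted p = 0.000265) and fell after cisplatin (-0.27 ± 0.045, adjusted p = 2.26e-08). The rise was lost without oxaliplatin replicate 1 (adjusted p = 0.0792) or replicate 2 (adjusted p = 0.0614), and the fall was kept in every alternative. Pfkm and Pfkp, the muscle and platelet subunits, passed in neither comparison, with 2078 to 2367 and 1249 to 1353 normalised counts. Pfkp shares 748 exon bases with Pitrm1 on the other strand, which had a mean of 4757 normalised counts, and whether counting used strand is not stated.

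Pfkfb3 (ENSMUSG00000026773.19, chromosome 2, 11471433 to 11554077) makes fructose-2,6-bisphosphate, the strongest activator of phosphofructokinase. Its normalised counts were 716 and 710.4 in control, 1111 and 1030.5 in oxaliplatin and 765 and 781 in cisplatin cells, so that both oxaliplatin libraries stood above all others. It had the highest fold change of all members after oxaliplatin, 0.59 ± 0.097 or 50.2% higher (adjusted p = 3.99e-08), kept in all 15 alternatives, against 0.12 ± 0.099 after cisplatin (adjusted p = 0.414). Pfkfb4 pointed the other way, with 268 and 254 normalised counts in control, 199 and 182 in oxaliplatin and 219 and 203 in cisplatin cells. Its values of -0.45 (adjusted p = 0.0531) and -0.31 were not called, although edgeR called both.

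Aldolase cleaves fructose-1,6-bisphosphate. Aldoa, its main form here, had 19176 and 18432 normalised counts in control, 19225 and 19359 in oxaliplatin and 16946 and 16581 in cisplatin cells. Control and oxaliplatin libraries were close and cisplatin libraries lower, and the fall after cisplatin, a log2 fold change of -0.17 ± 0.035, was called in every alternative (adjusted p = 2.3e-05). A second identifier with the same symbol had 10.8 to 22.8 normalised counts and was left aside. Aldoc, the brain form, was scarce, at 189.9 and 227 normalised counts in control, 104 and 124 in oxaliplatin and 128 and 115 in cisplatin cells. It fell after oxaliplatin (-0.87 ± 0.24, adjusted p = 0.00175) and after cisplatin (-0.78 ± 0.24, adjusted p = 0.00492). The first call was lost without control replicate 2 (adjusted p = 0.139), with no adjusted p given without replicate 1 of control or oxaliplatin, and the second without control replicate 2 (adjusted p = 0.186) or either cisplatin library (adjusted p = 0.0681 and 0.153).

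The enzymes of the lower part of the pathway, taken here from triose-phosphate isomerase to pyruvate kinase, gave the most uniform picture. After oxaliplatin 5 of 7 rose and none fell (71.4%, against 20.2% of all genes called and 10.7% called as higher). All 7 had a positive log2 fold change between 0.057 and 0.24. After cisplatin 1 rose and 1 fell, or 28.6%, which was near the 28.1% of all genes.

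Triose-phosphate isomerase, Tpi1, had 25555 and 24075.5 normalised counts in control, 27067 and 27407 in oxaliplatin and 23026 and 22656.5 in cisplatin cells. It rose after oxaliplatin (0.13 ± 0.037, adjusted p = 0.00241) and fell after cisplatin (-0.12 ± 0.037, adjusted p = 0.00685), with no overlap between groups. The rise was lost without control replicate 2 or either oxaliplatin library (adjusted p up to 0.121), and the fall without control replicate 1 or either cisplatin library (adjusted p up to 0.133). Gapdh, which makes NADH from glyceraldehyde-3-phosphate, had 22556 and 21579 normalised counts in control, 22570.3 and 23357 in oxaliplatin and 20961 and 20541 in cisplatin cells. It passed against control for neither drug, at 0.057 ± 0.037 after oxaliplatin and -0.089 ± 0.037 after cisplatin (adjusted p = 0.0531). Gapdh has 77 near-identical copies in the annotation that held 9.54% to 12.1% of its own count, and with these added to it the fall after cisplatin was called (log2 fold change -0.09, adjusted p = 0.0189). Without the copies DESeq2 also called it with TMM scaling (adjusted p = 0.0391), total-count scaling (0.00132) and no filter on low counts (0.0472).

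Pgk1, the first ATP-yielding enzyme, had 15342 and 14785 normalised counts in control, 16891 and 17975 in oxaliplatin and 15965 and 15895 in cisplatin cells. Its libraries were highest after oxaliplatin, with a rise of 0.21 ± 0.042 (adjusted p = 5.91e-06) against 0.081 ± 0.042 after cisplatin (adjusted p = 0.129). A pseudogene, Gm5537, matches Pgk1 over 1252 bases at 100% identity, and the copies together held 30.4% to 35.3% of the Pgk1 count, so that the split between them is uncertain. Phosphoglycerate mutase, Pgam1 (ENSMUSG00000011752.6, chromosome 19, 41911923 to 41918660), had 24528 and 23961 normalised counts in control, 27923 and 28672 in oxaliplatin and 27255 and 26973 in cisplatin cells. All 4 treated libraries exceeded both controls. Pgam1 rose after oxaliplatin (0.22 ± 0.032, adjusted p = 6.74e-11) and after cisplatin (0.16 ± 0.032, adjusted p = 4.05e-06), both in every alternative.

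Enolase 1, encoded by Eno1, had 49822.5 and 47047 normalised counts in control, 55747 and 54887 in oxaliplatin and 50297 and 50201 in cisplatin cells. The oxaliplatin libraries were the highest, with a rise of 0.19 ± 0.035 (adjusted p = 6.99e-07), while the value after cisplatin was 0.053 ± 0.035. Copies of Eno1, chiefly Gm4735, held 12.9% to 18.8% of its count, and with them added the cisplatin value was -0.0005. The neuronal Eno2 had 131 to 177 normalised counts and was not called. Pyruvate kinase, Pkm, the most abundant member per kb, had 71521 and 69863 normalised counts in control, 79149 and 78185 in oxaliplatin and 69669.6 and 69994 in cisplatin cells. It rose after oxaliplatin by 0.15 ± 0.027 (adjusted p = 2.28e-07), and after cisplatin stood at -0.018 ± 0.027, with libraries that overlapped control. Adding near-identical copies changed no call of Pgk1, Pgam1, Eno1 or Pkm.

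**Figure D3:**
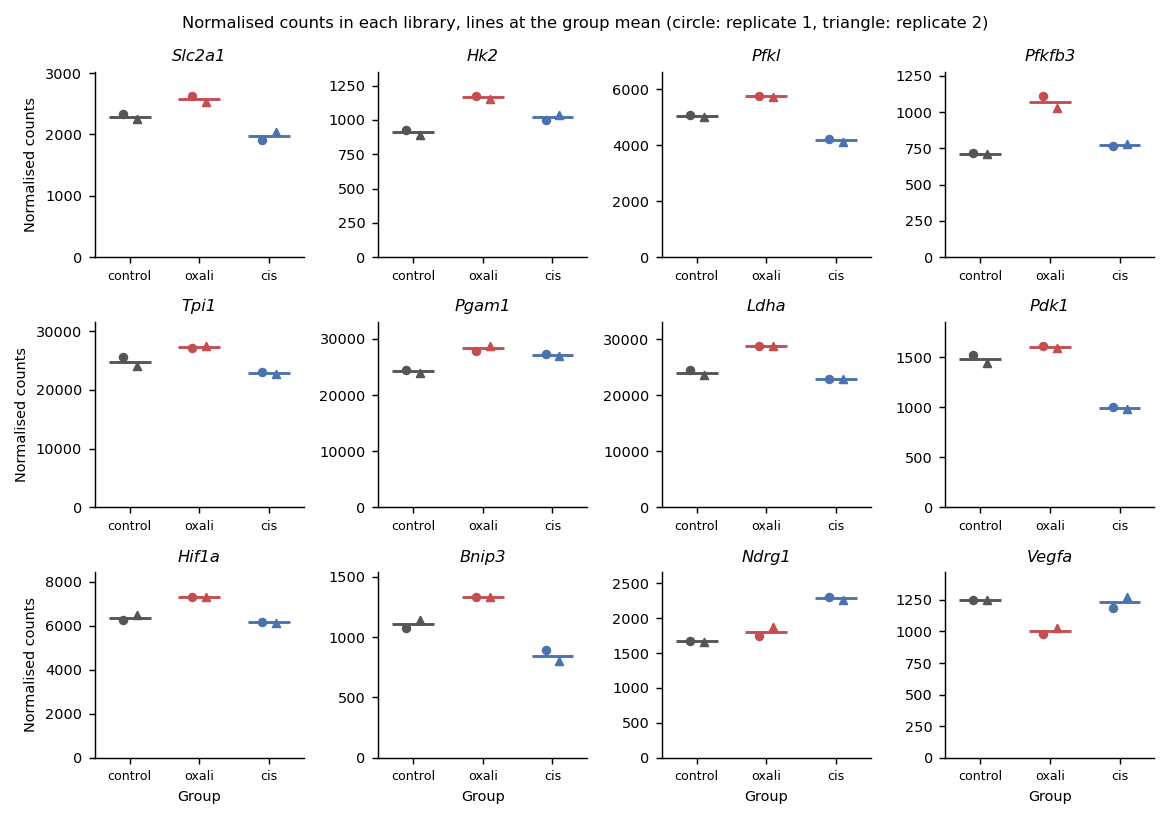
Normalised counts of 12 members in each library, with axes from 0, a line at each group mean and separate symbols for replicates 1 and 2. Ldha, Pfkl and Hif1a are highest in both oxaliplatin libraries, Pdk1 is lowest in both cisplatin libraries at 1003 and 981, and Ndrg1 is highest there.

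Lactate dehydrogenase A, encoded by Ldha (ENSMUSG00000063229.15, chromosome 7, 46841475 to 46855627), reduces pyruvate to lactate. Its normalised counts were 24469 and 23644 in control, 28758 and 28762 in oxaliplatin and 22993.5 and 22844 in cisplatin cells. Both oxaliplatin libraries lay above all others. Ldha rose by 0.26 ± 0.031 or 19.6% after oxaliplatin, the smallest adjusted p of the members in that comparison (1.36e-14), and was at -0.070 ± 0.032 after cisplatin (adjusted p = 0.0757, 0.000991 with total-count scaling). Against control the lactate transporters were called after different drugs by DESeq2, Slc16a3 after cisplatin and Slc16a1 after oxaliplatin. The value of Slc16a3 after oxaliplatin, 0.14 ± 0.062, was not called by DESeq2 (adjusted p = 0.0705), although edgeR called it (adjusted p = 0.0286). Slc16a3, encoding the export carrier MCT4, had 2989 and 2751 normalised counts in control, 3157 and 3185 in oxaliplatin and 2467.5 and 2493 in cisplatin cells and fell after cisplatin (-0.21 ± 0.063, adjusted p = 0.00402), a call lost without control replicate 1 (adjusted p = 0.161) or either cisplatin library (adjusted p = 0.106 and 0.0769). Slc16a1, encoding MCT1, had 4151 and 4084 normalised counts in control, 3640.2 and 3786.5 in oxaliplatin and 4159.5 and 4284 in cisplatin cells and fell after oxaliplatin (-0.15 ± 0.051, adjusted p = 0.0176), a call lost without each of the 6 libraries (adjusted p up to 0.358).

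Pyruvate dehydrogenase kinase 1 holds pyruvate out of the mitochondrial citric acid cycle. Pdk1 (ENSMUSG00000006494.11, chromosome 2, 71873224 to 71903858) had 1522 and 1445 normalised counts in control, 1612 and 1599.5 in oxaliplatin and 1003 and 981 in cisplatin cells. Both cisplatin libraries were far below the other 4, which lay close together. The fall after cisplatin, -0.58 ± 0.079 or 33.1%, had the smallest adjusted p of the members in that comparison (7.43e-12), against 0.11 ± 0.076 after oxaliplatin (adjusted p = 0.303).

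Among the oxygen sensors, Hif1a (ENSMUSG00000021109.13, chromosome 12, 73901375 to 73947530), the oxygen-regulated subunit, had 6261 and 6471 normalised counts in control, 7322 and 7306.5 in oxaliplatin and 6183 and 6122 in cisplatin cells. The groups did not overlap, with oxaliplatin above and cisplatin below control. The rise after oxaliplatin, 0.20 ± 0.042, was called (adjusted p = 1.88e-05) and the value after cisplatin, -0.049 ± 0.042, was not (adjusted p = 0.407). Egln1, encoding the main HIF prolyl hydroxylase PHD2 and itself a HIF target, had 1864 and 1865 normalised counts in control, 2312 and 2250.4 in oxaliplatin and 1911 and 2024 in cisplatin cells. It rose after oxaliplatin (0.29 ± 0.067, adjusted p = 0.000129), a call lost without oxaliplatin replicate 1 (adjusted p = 0.062), and was not called after cisplatin (0.077). Egln3, for PHD3, had 379 to 421 normalised counts and overlapping groups. The 4.15 and 3.94 normalised counts of Epas1 in control, 10.2 and 4.09 in oxaliplatin and 1.96 and 7.16 in cisplatin cells are too few for a comparison.

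Of the 10 hypoxia-response targets 3 rose and 2 fell after oxaliplatin, and 1 rose and 2 fell after cisplatin. These are 50.0% and 30.0%, against 20.2% and 28.1% of all genes, so that the cisplatin share was near the background. The medians were 0.12 and 0.012 on the log2 scale. Bnip3 (ENSMUSG00000078566.8, chromosome 7, 138890836 to 138909519), which directs mitochondria to autophagy, had 1077 and 1139 normalised counts in control, 1336 and 1336.5 in oxaliplatin and 893.5 and 799.7 in cisplatin cells, without overlap. It rose after oxaliplatin (0.27 ± 0.091, adjusted p = 0.0159) and fell after cisplatin (-0.39 ± 0.094, adjusted p = 0.000266). The rise was lost without any 1 of the control or oxaliplatin libraries (adjusted p up to 0.218), and the fall without cisplatin replicate 2 (adjusted p = 0.0754). Bnip3l, its close relative, stayed between 3338 and 3634 normalised counts and was not called.

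Ak4, a mitochondrial adenylate kinase, had 484 and 496 normalised counts in control, 724.5 and 681 in oxaliplatin and 473 and 541 in cisplatin cells. It rose after oxaliplatin (0.52 ± 0.12, adjusted p = 0.000251), a call lost without oxaliplatin replicate 1 (adjusted p = 0.0738). P4ha1, a subunit of collagen prolyl hydroxylase, had 6579 and 6755 normalised counts in control, 7201 and 7297 in oxaliplatin and 6359 and 6462 in cisplatin cells and rose by 0.12 ± 0.041 after oxaliplatin (adjusted p = 0.0169), lost without each of the 6 libraries (adjusted p up to 0.319). Ndrg1 (ENSMUSG00000005125.13, chromosome 15, 66929318 to 66969640), a stress and differentiation gene that p53 also induces, had 1681 and 1654 normalised counts in control, 1745 and 1869 in oxaliplatin and 2313 and 2264 in cisplatin cells. Its 2 cisplatin libraries were above the other 4, a rise of 0.46 ± 0.069 or 37.2% (adjusted p = 1.03e-09), against 0.12 ± 0.070 after oxaliplatin (adjusted p = 0.244).

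The genes that fell after oxaliplatin in this group were Vegfa, the angiogenic growth factor, and Car9, a carbonic anhydrase that helps cells export acid. Vegfa had 1250.1 and 1251 normalised counts in control, 982 and 1031 in oxaliplatin and 1188 and 1277 in cisplatin cells, lowest in the oxaliplatin libraries (-0.31 ± 0.086, adjusted p = 0.00214), a call lost without any 1 of the control or oxaliplatin libraries (adjusted p up to 0.149). Car9 had 88.9 and 83.3 normalised counts in control, 46.1 and 42.7 in oxaliplatin and 52.4 and 40.9 in cisplatin cells, about as low after either drug. Its falls of -0.95 ± 0.35 (adjusted p = 0.0312) and -0.90 ± 0.35 (adjusted p = 0.0373) had wide errors, and the first was lost with no filter on low counts (adjusted p = 0.055). DESeq2 gave it no adjusted p with the replicate block or without any 1 library, with unadjusted p of 0.0579 to 0.0879 without a control or oxaliplatin library, so that only 8 alternatives could be read. The second was lost in 7 of 13 alternatives, among them without either control or either oxaliplatin library (adjusted p up to 0.26). An antisense gene, Gm12454, shares 145 exon bases with Car9 and had a mean of 34.2 normalised counts against 59.1 for Car9. The histone demethylase gene Kdm3a was close to the threshold after both drugs, at 0.17 ± 0.070 (adjusted p = 0.0545) and 0.17 ± 0.070 (adjusted p = 0.0504). It was called after both by edgeR, and after cisplatin also with at least 10 counts in every library (adjusted p = 0.0479) and with near-identical copies added (0.0488). By DESeq2, P4ha2 and Ankrd37 were not called.

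Within gene families the make-up shifted with treatment. The following shares are of the summed normalised counts per kb of exon of the family, described over 2 libraries a group with no test. Pfkl made up 55.6% and 56.9% of the phosphofructokinase level in control, 60.7% and 60.6% in oxaliplatin and 52.6% and 52.3% in cisplatin cells. The share of Hk2 among Hk1 and Hk2 was 18.4% and 18.5%, 21.4% and 21.5%, and 20.1% and 20.0% in the same order. Pfkfb3 made up 38.3% and 38.1% of the 4 Pfkfb genes in control, 54.0% and 52.1% in oxaliplatin and 45.1% and 47.0% in cisplatin cells. The share of Bnip3 against Bnip3l was 35.6% and 36.6% in control, 41.4% and 41.3% in oxaliplatin and 30.5% and 28.0% in cisplatin cells. Pdk1 gave 28.1% and 26.1% of the kinase level in control but 21.0% and 19.9% in cisplatin cells, where Pdk3 gave 51.8% and 53.8%. Ldha held at least 98.8% of the lactate dehydrogenase level and Aldoa at least 99.3% of the aldolase level in every library.

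**Figure D4:**
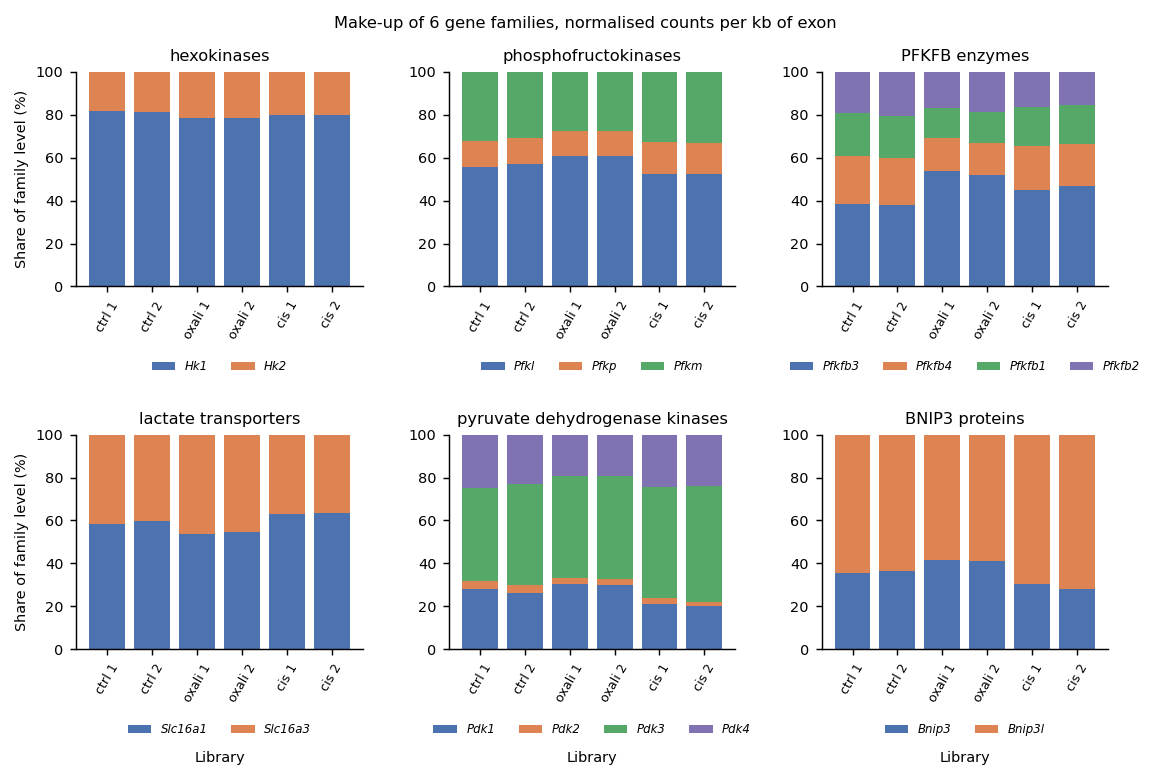
Share of each gene in the summed normalised counts per kb of exon of its family, as stacked bars from 0 to 100% for each of the 6 libraries. The Pfkfb3 bar is 54.0% and 52.1% high in the oxaliplatin libraries against 38.3% and 38.1% in control, and the Pdk1 bar is shortest in the cisplatin libraries.

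Oxaliplatin and cisplatin share a platinum atom but differ in what it holds, a diaminocyclohexane carrier with an oxalate leaving group in the one and ammine and chloride ligands in the other. They were given at the same concentration for the same time, which need not mean the same strength of effect. The labels give no measure of uptake or damage, so the kind of drug and the strength of exposure cannot be told apart. Against control, 28.1% of all genes were called after cisplatin and 20.2% after oxaliplatin. The libraries of the drugs were compared directly, as 1 pair of compounds, with adjustment over all genes tested. In this comparison 21 of the 36 members were called, 17 higher and 4 lower with oxaliplatin than with cisplatin. The background was 19.9% called, 8.62% higher and 11.3% lower, against 58.3%, 47.2% and 11.1% of the members. With total-count scaling 19 members were higher and 4 lower, and all genes were split into 10.8% higher and 9.12% lower. The median log2 difference over the members was 0.15, and 25 of 36 were positive.

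Pdk1 differed most, at 0.69 ± 0.079 or 61.8% higher with oxaliplatin (adjusted p = 9.65e-17), followed by Bnip3 at 0.66 ± 0.093 (adjusted p = 5.99e-11). Pfkfb3 and Ak4 were higher by 0.47 ± 0.097 and 0.47 ± 0.12, Pfkl by 0.46 ± 0.045 (adjusted p = 1.15e-22), Slc2a1 by 0.38 ± 0.067 and Slc16a3 by 0.35 ± 0.062. The smallest adjusted p, 2.49e-23, belonged to Ldha, at 0.33 ± 0.031. Tpi1 (0.25), Hif1a (0.25), Egln1 (0.21), Aldoa (0.20), P4ha1 (0.18), Pkm (0.17), Gapdh (0.15), Eno1 (0.14) and Pgk1 (0.13) completed the 17, and Gapdh was the only member called here and against control for neither drug. The members lower with oxaliplatin were Ndrg1 (-0.34 ± 0.069, adjusted p = 1.11e-05), Vegfa (-0.29 ± 0.086), Slc16a1 (-0.19 ± 0.051) and Gpi1 (-0.14 ± 0.036). Of the 21 calls 12 were kept in every alternative, and those lost without a single library were Ak4, P4ha1, Egln1, Gapdh, Eno1, Pgk1, Vegfa, Slc16a1 and Gpi1, with adjusted p up to 0.156, 0.0722, 0.28, 0.122, 0.0851, 0.368, 0.225, 0.203 and 0.156. Each was lost without at least 1 oxaliplatin library, replicate 1 for Eno1, Ak4 and Slc16a1, replicate 2 for Gapdh, Pgk1 and P4ha1, and either of them for Egln1, Vegfa and Gpi1. A cisplatin library also decided the call of all of these but Eno1, replicate 1 for Ak4 and P4ha1, replicate 2 for Gapdh and Slc16a1, and either of them for Pgk1, Egln1, Vegfa and Gpi1.

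For 15 members a difference between the drugs was not shown. The 95% interval of the log2 difference was -0.00020 to 0.12 for Pgam1, -0.13 to 0.14 for Kdm3a, -0.11 to 0.15 for P4ha2 and -0.14 to 0.12 for Pfkm. This leaves room for small differences only, although some called members differed by as little, such as Pgk1 (0.13) and Eno1 (0.14). With total-count scaling Pgam1 was called (0.0957, DESeq2 adjusted p = 0.0126). The interval was -0.77 to 0.66 for Car9, -0.57 to 0.38 for Aldoc and -0.051 to 1.16 for Ankrd37, wide enough to hide a large difference. Hk2 was at 0.19 ± 0.086, with an interval of 0.025 to 0.36 and an adjusted p of 0.0845. It was called by edgeR (adjusted p = 0.0163) and by DESeq2 with total-count scaling (adjusted p = 0.0355).

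**Figure D5:**
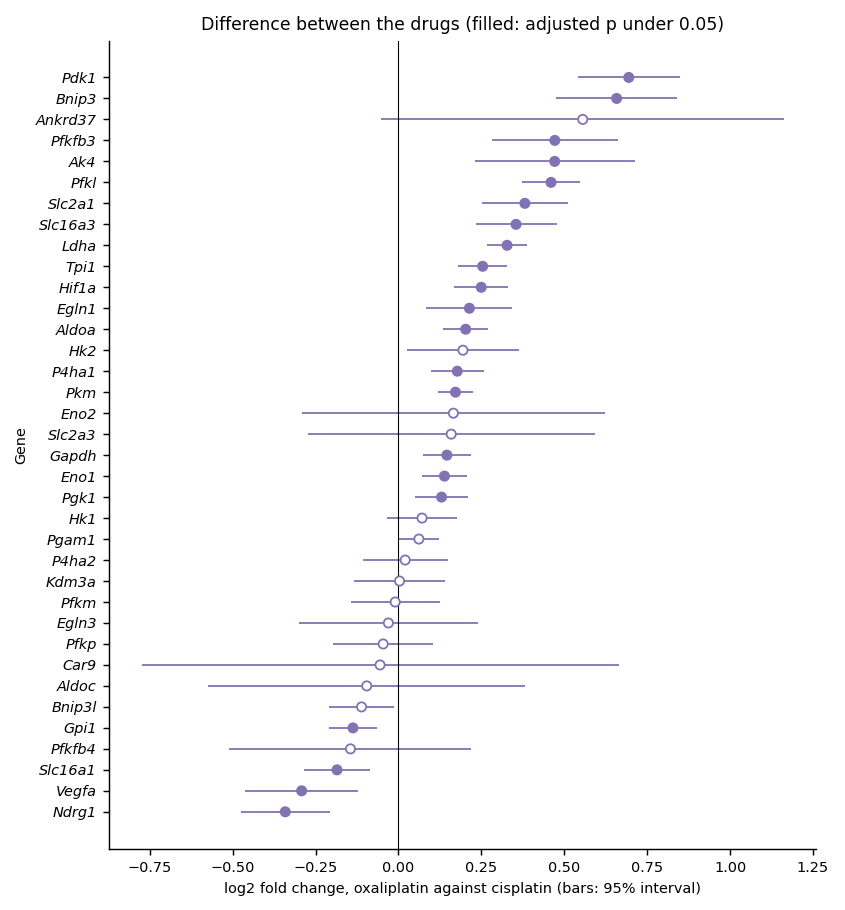
Log2 fold change of oxaliplatin against cisplatin for the 36 tested members, ordered by size, with bars for the 95% interval and filled points where the DESeq2 adjusted p was under 0.05. The 17 filled points on the right run from Pgk1 at 0.13 to Pdk1 at 0.69, and the 4 on the left are Gpi1, Slc16a1, Vegfa and Ndrg1.

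The members lie on 16 chromosomes, with gene bodies of 3.71 to 111 kb and a median of 24.9 kb against 19.2 kb for all genes tested. Across the 36 tested members, which share libraries and are not replicates, the Spearman correlation of gene length with the log2 fold change was 0.124 after oxaliplatin and 0.34 after cisplatin, against -0.031 and -0.125 across all genes tested.

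Other genes of the same metabolism were read from lists written out by name, also with earlier results of these data known. They are to be held against the 20.2% and 28.1% of all genes called after oxaliplatin and cisplatin. Among 21 genes of the pentose phosphate, glycogen and hexosamine branches, which draw on glucose-6-phosphate and fructose-6-phosphate, 2 rose and 8 fell after oxaliplatin, and 7 rose and 6 fell after cisplatin, so that 47.6% and 61.9% were called. The medians were -0.13 and 0.013 on the log2 scale, and with total-count scaling 4 rose and 7 fell after cisplatin and the median was -0.034. Transketolase, Tkt, had 10963 and 10535 normalised counts in control, 8787 and 8628 in oxaliplatin and 13079 and 13184 in cisplatin cells, falling after oxaliplatin (-0.30 ± 0.038, adjusted p = 1.41e-13) and rising after cisplatin (0.29 ± 0.038, adjusted p = 8.64e-13). This order is the reverse of that of Pfkl and Tpi1, and the drugs differed by -0.59 ± 0.038 (adjusted p = 2.02e-51). Pgd, the second NADPH-making enzyme of the branch, had 7910.0 and 7528 normalised counts in control, 6067 and 5991 in oxaliplatin and 8523 and 8378 in cisplatin cells, a fall of -0.36 ± 0.043 after oxaliplatin (adjusted p = 1.84e-14) and a rise of 0.13 ± 0.043 after cisplatin (adjusted p = 0.0104), the latter lost with total-count scaling and without any 1 library but control replicate 1 (adjusted p up to 0.218). H6pd, which makes NADPH in the endoplasmic reticulum, fell after oxaliplatin (-0.58 ± 0.072) and after cisplatin (-0.22 ± 0.071, lost without each library in turn, adjusted p up to 0.197), with a difference of -0.36 ± 0.073 (adjusted p = 1.17e-05). Gfpt2, of hexosamine synthesis, rose by 0.31 ± 0.12 and 0.87 ± 0.12, and its rise after oxaliplatin was lost without each library in turn (adjusted p up to 0.322).

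Of 11 tested genes that sense glucose or act on glycolytic genes, 4 rose and none fell after each drug (36.4%). All 11 had lower estimates with oxaliplatin than with cisplatin, 4 of them called (36.4%, against 19.9% of all genes called and 11.3% called as lower). Only 3 (27.3%) were called lower with TMM scaling, total-count scaling, no independent filtering or the 4 libraries only. All genes called were then at 20.2%, 20.0%, 19.1% and 19.7%. With the replicate block 4 still rose after cisplatin, but 2 rose after oxaliplatin (18.2%, all genes 13.1%) and 3 were called lower between the drugs (27.3%, all genes 12.4%). Txnip, which curbs glucose uptake, had 2643 and 2732 normalised counts in control, 3829.9 and 3841 in oxaliplatin and 5615 and 5517 in cisplatin cells, ordered from control through oxaliplatin to cisplatin without overlap. It rose by 0.51 ± 0.051 (adjusted p = 5.77e-22) and 1.05 ± 0.050 (adjusted p = 3.28e-95). Myc, which drives glycolytic genes, had 1068 and 1005 normalised counts in control, 1602 and 1527 in oxaliplatin and 1999.9 and 2117 in cisplatin cells, and rose by 0.59 ± 0.080 and 0.99 ± 0.079 in the same order, as did Ppp1r15a, a stress-induced phosphatase subunit (0.44 ± 0.14 and 0.96 ± 0.13). The rise of Ppp1r15a after oxaliplatin was lost without control replicate 2, cisplatin replicate 2 or either oxaliplatin library (adjusted p up to 0.211), and Txnip and Myc were called in every alternative.

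Among 19 tested genes of the HIF pathway other than the members, 3 rose and none fell after oxaliplatin, and 4 rose and 2 fell after cisplatin, shares of 15.8% and 31.6%. The share was below that of all genes after oxaliplatin (20.2%) and near it after cisplatin (28.1%). With total-count scaling 5 fell after cisplatin. Hspa9, a mitochondrial chaperone, rose by 0.29 ± 0.033 and 0.33 ± 0.033, Eloc, an elongin subunit of the VHL ligase that removes HIF-1 alpha, by 0.22 ± 0.061 and 0.28 ± 0.061, and Cited2, which competes with HIF for its coactivator, by 0.32 ± 0.092 and 0.56 ± 0.092. After oxaliplatin Eloc was lost without control replicate 1 or either oxaliplatin library (adjusted p up to 0.117), and Cited2 without control replicate 2 or oxaliplatin replicate 1 (adjusted p up to 0.171). Among 35 further tested hypoxia targets 8 rose and 7 fell after oxaliplatin and 10 rose and 5 fell after cisplatin, or 42.9% called in each, with medians of 0.0027 and 0.12. With total-count scaling the cisplatin split was 9 and 8. Lox, Tfrc and Angptl4 moved the same way after both drugs. Lox, a collagen cross-linking enzyme, had log2 fold changes of -0.43 and -0.52, both falls past the threshold. Tfrc, the transferrin receptor, rose by 0.74 ± 0.048 and 0.61 ± 0.048, and Angptl4, a secreted inhibitor of lipoprotein lipase, by 0.88 ± 0.10 and 1.26 ± 0.10. The direct test put Angptl4 lower with oxaliplatin (-0.38 ± 0.098, adjusted p = 0.000972), and Lox and Tfrc slightly higher (0.088 and 0.12, adjusted p = 0.0106 and 0.0359). These differences of Lox and Tfrc were lost without either oxaliplatin or either cisplatin library (adjusted p up to 0.315 and 0.44), and that of Angptl4 without oxaliplatin replicate 1 or either cisplatin library (adjusted p up to 0.137).

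Of 26 remaining isozymes and transporters of glycolysis, 12 passed the filter on low counts and 21 held any counts. After oxaliplatin 1 rose and 2 fell, and after cisplatin 2 rose and 1 fell, 25.0% called in each. Eno3, the muscle enolase, rose after both drugs (0.24 ± 0.062 and 0.31 ± 0.062). Ldhb, the lactate dehydrogenase form that favours pyruvate, fell after oxaliplatin (-0.64 ± 0.21, adjusted p = 0.0137), as did the glucose transporter gene Slc2a10 (-0.66 ± 0.21). Bpgm, a bisphosphoglycerate mutase, rose (0.41 ± 0.13) and Pfkfb2 fell (-0.48 ± 0.16) after cisplatin. The calls of Bpgm and Pfkfb2 were lost without each library in turn (adjusted p up to 0.171 and 0.211), that of Ldhb without control replicate 2, oxaliplatin replicate 2 or either cisplatin library (adjusted p up to 0.249), with no adjusted p given without the other two libraries, that of Slc2a10 without control replicate 1 or either oxaliplatin library (adjusted p up to 0.242), and that of Eno3 after oxaliplatin without control replicate 2 (adjusted p = 0.0627).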

How the data were processed

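The 6 libraries, of poly(A) RNA from TRAMP-C2 cells, were grouped by their labels into control, oxaliplatin and cisplatin, 2 each. The authors deposited expected counts per gene, unscaled, in which RSEM shares out a read that fits more than 1 gene. The submitters' processing notes name STAR 2.5.3a, RSEM 1.3.0 and GRCm38.p6 without stating their roles, and the study's methods describe another counter for its in vitro RNA-seq. Symbols, positions and exon lengths came from GENCODE M21 (GRCm38), where 54409 of 54446 identifiers matched, 53229 with the same version.

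Expected counts were rounded, and a gene was tested if 2 or more libraries held 10 or more counts of it. A single DESeq2 fit (1.42.0, R 4.3.3) covered the 6 libraries, with size factors of 0.964 to 1.08, two-sided Wald tests, Benjamini-Hochberg adjustment and a threshold of 0.05, and independent filtering at its default of 0.1. The fit was also run on simulated data. The changes simulated were larger than that of any called member, so the run does not measure how well smaller changes are found. Depth was 21345312 to 24041767 counts a library. Alternatives were edgeR's quasi-likelihood test (4.0.16), TMM or total-count scaling, other low-count filters, no independent filtering, a replicate block, 4 libraries only, each library left out, and, chosen after seeing the data, counts summed with near-identical copies (blastn 2.17.0, at least 95% identity over 200 bases). A group left with 1 library was assumed to vary like the others. Members and lists were chosen with earlier results of these data known. All members are accounted for, those called with each library's value, and from each further list the 3 called genes with the smallest adjusted p per drug are named, except for some genes of these lists that are not reported here.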

Additional observations from a re-analysis of the deposited data

How the results depend on the processing

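The number of members called after oxaliplatin against control, 20 in the main analysis, was 7 to 15 when 1 library was left out, 22 with edgeR, 17 with only the 4 libraries compared and 14 with the replicate block. After cisplatin 11 members became 6 to 10 without 1 library, 14 with edgeR, 16 with total-count scaling and 9 with the block, and for oxaliplatin against cisplatin 21 became 15 to 21, 24 with edgeR and 20 with the block. Of all genes, 8.22% to 14.6%, 14.1% to 20.4% and 8.02% to 16.6% were called without 1 library in the same order, 30.9%, 40.9% and 31.9% with edgeR and 13.1%, 18.9% and 12.4% with the block, so that with edgeR the members called after cisplatin (38.9%) were no more frequent than all genes. No pairing by replicate number was visible, as the deviations of same-numbered libraries from their group means correlated at 0.0718, -0.0479 and -0.177. Whether same-numbered libraries shared a culture or a batch is not given in the labels, and 2 libraries a group are too few to settle it.

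Median log2 fold changes of the members without 1 library were 0.1006 to 0.1442, -0.0459 to -0.0123 and 0.1311 to 0.1721 in the same order, and total-count scaling gave -0.072 after cisplatin and 0.1868 between the drugs. Of 1583 values for single members 1435 kept direction and side of the threshold, 26 newly passed it, 101 no longer passed it and 21 changed sign, all 21 for values that were not called. With total-count scaling these were, after cisplatin, P4ha2 (-0.0022), Slc16a1 (-0.0118), Gpi1 (-0.0051) and Hk1 (-0.0356), and between the drugs Pfkm (0.0243) and Egln3 (0.0038), and with copies added Eno1 after cisplatin (-0.0005). With 1 library left out, the values that crossed 0 ranged after oxaliplatin from -0.113 to 0.0351 for Slc2a3 and -0.1237 to 0.0029 for Egln3, after cisplatin from -0.104 to 0.2249 for Eno2, -0.0122 to 0.1036 for P4ha2, -0.0742 to 0.0315 for Vegfa, -0.0497 to 0.145 for Ak4, -0.0588 to 0.0046 for Egln3 and -0.02 to 0.0439 for Hk1, and between the drugs from -0.2255 to 0.0265 for Aldoc, -0.0366 to 0.0781 for P4ha2, -0.0958 to 0.03 for Egln3 and -0.0233 to 0.0291 for Kdm3a. The cause of these changes was not tested. With 2 libraries a group and 3 counts as the limit of a listed 0, small changes of scarce members such as Epas1, Car9 and Eno2 could not be resolved.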

Other observations

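Genes that carry pyruvate and reducing equivalents into mitochondria were also read from a list of 20, all tested. After oxaliplatin 4 rose and 3 fell, and after cisplatin 6 rose and 3 fell, or 35.0% and 45.0% against 20.2% and 28.1% of all genes, with medians of 0.029 and 0.049 on the log2 scale. The called genes with the smallest DESeq2 adjusted p were the same 3 after both drugs, Got1, Got2 and Mdh2. Got1, the cytosolic aspartate aminotransferase, had 2005 and 1851 normalised counts in control, 2306 and 2356 in oxaliplatin and 2659 and 2678 in cisplatin cells. It rose by 0.27 ± 0.066 (adjusted p = 0.000359) and 0.47 ± 0.066 (adjusted p = 3.69e-11), and the first call was lost without control replicate 2 or oxaliplatin replicate 2 (adjusted p up to 0.0638). Got2, its mitochondrial counterpart, had 7225 and 7152 normalised counts in control, 8317 and 8086 in oxaliplatin and 8879 and 8711.5 in cisplatin cells and rose by 0.19 ± 0.040 (adjusted p = 2.12e-05, lost without oxaliplatin replicate 1 at 0.0549) and 0.29 ± 0.040 (adjusted p = 6.23e-12). Mdh2, mitochondrial malate dehydrogenase, had 7559 and 7085 normalised counts in control, 8382 and 8704 in oxaliplatin and 9144 and 9482 in cisplatin cells and rose by 0.22 ± 0.048 (adjusted p = 4.34e-05) and 0.35 ± 0.048 (adjusted p = 1.33e-11) in every alternative. Mdh1, cytosolic malate dehydrogenase, which was picked after its values were seen, was called against control for neither drug (-0.11 and 0.062, adjusted p = 0.124 and 0.412) and was lower with oxaliplatin than with cisplatin (-0.17 ± 0.053, adjusted p = 0.00779). That direct difference of Mdh1 was lost in 5 of 15 alternatives, namely with the replicate block and without either oxaliplatin or either cisplatin library. For Got1, Got2 and Mdh2 the cisplatin libraries were the highest, and the direct difference between the drugs was lost in 6, 14 and 8 of 15 alternatives.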
